A study of Drosophila melanogaster with 4 samples.

Results

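Cuticle tanning and catecholamine metabolism share a small set of enzymes, and 7 of their genes were followed here in heads of F1 flies: ple, Ddc, b, e, t, Dat and laccase2. They were taken from the deposited table by exact, case-sensitive gene name, and all 7 were found among its 16680 genes. The table gave mRNA levels as FPKM, the reads of a gene scaled to its transcript length and to the depth of the library. It held 4 libraries from adult male Drosophila melanogaster heads, 2 from flies with and 2 from flies without phenotypic variations of the eye, each from RNA of 10 pooled heads. All flies were Kr[If-1], which carries a gain-of-function allele of the zinc finger gene Krüppel that sensitizes the eye to outgrowths, and the parents of both groups had been exposed to Cr(VI) in food as K2Cr2O7. The comparison was therefore between F1 flies of exposed parents that did or did not show eye variations, and heads of unexposed flies were not analysed here. The study's stock list names this line as b1, Kr[If-1], so it carries an allele of black, the gene listed as b, but whether the sampled F1 males were homozygous for it is not stated. The labels call the repeats biological, the age of the flies is not given, and p-values measure only the spread between these libraries.

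Insect cuticle is hardened and colored after moulting by catechols made from tyrosine in epidermal cells. Tyrosine hydroxylase (ple) makes DOPA, and DOPA decarboxylase (Ddc) turns it into dopamine. Dopamine is then coupled to beta-alanine by ebony (e) or acetylated by the arylalkylamine N-acetyltransferase Dat, and laccase2 oxidizes the products in the cuticle to quinones that crosslink its proteins. Black (b) supplies beta-alanine, and tan (t) splits the beta-alanyl product again. In the brain ple and Ddc serve dopamine neurons, Ddc also serotonin neurons, while in the eye ebony in glia and tan in photoreceptors recycle histamine, the photoreceptor transmitter. A gene-level FPKM of a whole head adds up epidermis, neurons and glia, and fewer cells of a type cannot be told apart from less RNA per cell.

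The libraries had the transcripts of heads. The 6 neuron markers were all higher with phenotype (median log2 difference 0.12) and summed to 841 and 880.0 FPKM with phenotype and to 753 and 797 FPKM without. The synaptic genes nSyb and Syn, highest in level and in difference, had log2 differences of 0.17 and 0.25. The photoreceptor markers summed to 2350 and 1709 FPKM with and 1834 and 1432 FPKM without phenotype (5 of 6 higher). The rhodopsin gene ninaE, the highest, was at 948 and 665 FPKM with and 773 and 543.5 FPKM without phenotype, and the arrestin gene Arr1, with the largest difference, had a log2 difference of 0.55. The design text also mentions ovaries, but the germline genes osk, nos, bam and otu were at 0.16 FPKM or less in every library, vas at 0.48 FPKM or less, and no testis marker was above 0.46 FPKM. Of the 7 germline genes only grk and bru1 reached a mean of 1 FPKM, both with overlapping groups, and grk was at 24.8 and 28.5 FPKM with and 24.2 and 25.9 FPKM without phenotype. Repeat 1 without phenotype stood apart in digestive genes, with a sum of 47.8 and 92.7 FPKM with phenotype against 341 and 41.3 FPKM without (2 higher and 5 lower). In that list the amylase gene Amy-p was at 36.2 and 56.3 FPKM with and 110.4 and 39.6 FPKM without phenotype, and the trypsin gene betaTry at 3.61 and 8.84 FPKM with and 0.08 and 0 FPKM without phenotype. Of 10194 genes averaging 1 FPKM or more, 9 differed between the groups at an adjusted p under 0.1, which is 0.0883% of those tested. The test was limma on log2(FPKM + 1) with Benjamini-Hochberg adjustment over all of these genes. The median log2 difference of all genes tested was 0.07, with phenotype minus without, and 62.7% of them were higher with phenotype.

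Across the pathway, ple, e and laccase2 had lower mean FPKM in heads with phenotype and Ddc and Dat higher, while t was at about the same mean level and b differed in one library only. All 7 genes were tested and 0 passed (adjusted p from 0.18 to 0.93 from limma). Without adjustment 3 of 7, laccase2, ple and Dat, had p under 0.05 from limma, as did 22.7% of all genes tested. Both libraries with phenotype lay below both without for 2 members, ple and laccase2, against 18.3% of all genes tested. They lay above both without for 2 members, Ddc and Dat, against 41.3% of all genes tested. A count of 2 of 7 is thus below the background for the higher direction and above it for the lower one, on few genes. For each of these 4 genes the gap between the groups was smaller than the distance between the repeats of either group. The median log2 difference of the 7 genes was -0.25.

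**Figure D1:**
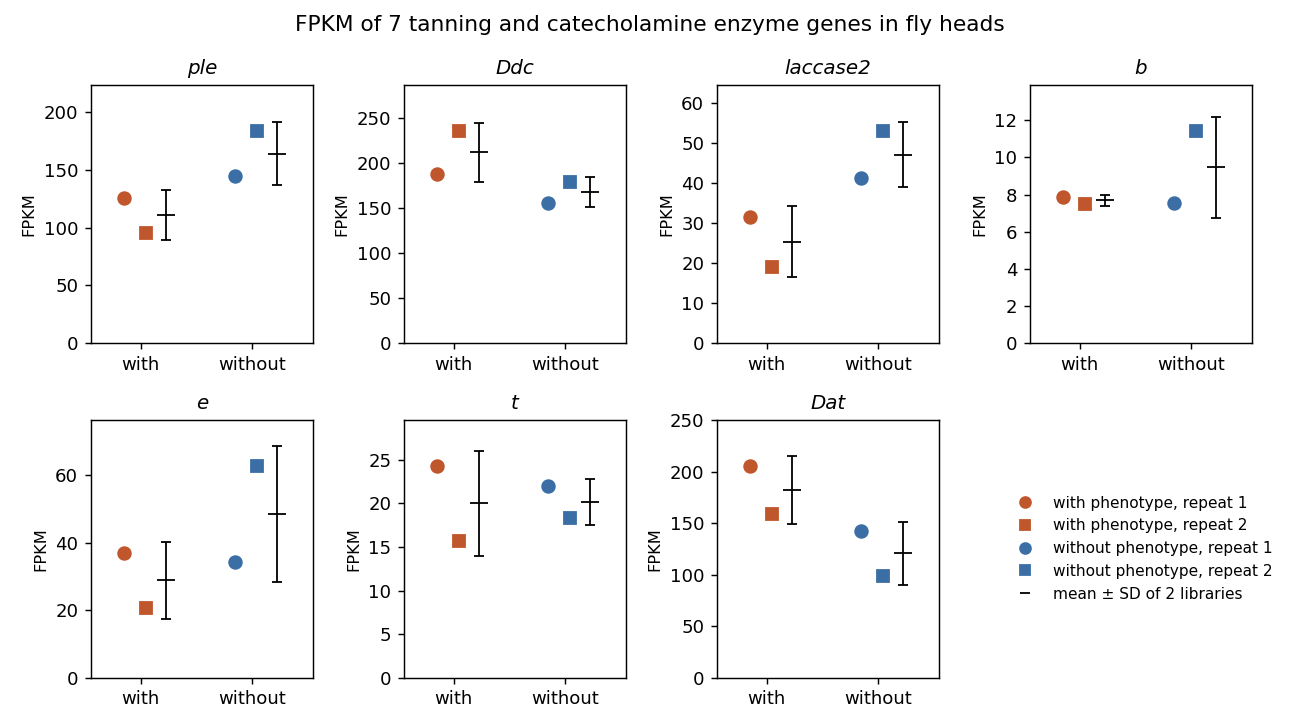
FPKM (y axis, from 0) of each gene in heads with phenotype (orange) and without phenotype (blue), with circles for repeat 1, squares for repeat 2 and a black bar for the mean ± SD of 2 libraries. The groups do not overlap for ple, Ddc, laccase2 and Dat, and they overlap for b, e and t.

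The gene of the first step of dopamine synthesis had a lower mean level in heads with phenotype and that of the next step a higher one. ple was at 126 and 95.3 FPKM with phenotype and at 145 and 183 FPKM without. The group means were 111 ± 21.7 FPKM with and 164 ± 27.1 FPKM without phenotype (SD, n = 2), or 1.49-fold lower with phenotype. Its log2 difference was -0.57 (standard error 0.19, 95% interval -1.08 to -0.064, adjusted p = 0.20 from limma). Both libraries with phenotype were below both without, and 7.75% of all genes tested had a larger absolute difference. Ddc was at 188 and 235 FPKM with phenotype and at 156 and 179.5 FPKM without. Its means were 212 ± 33.1 FPKM with and 168 ± 16.7 FPKM without phenotype (SD, n = 2), a log2 difference of 0.33 (standard error 0.15, 95% interval -0.071 to 0.73, adjusted p = 0.27 from limma). The groups did not overlap for Ddc.

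Tyrosine hydroxylase needs tyrosine and the cofactor tetrahydrobiopterin, and the 7 genes of that supply had no common direction. Of these, 4 were higher and 3 lower with phenotype, 0 passed, none reached an unadjusted p under 0.05 from limma, and their median log2 difference was 0.034. Hn, phenylalanine hydroxylase, which makes tyrosine, had the highest level at 344 and 412 FPKM with phenotype and 504 and 382 FPKM without. Pu, GTP cyclohydrolase I, which starts the synthesis of the cofactor, differed most, at 163 and 133 FPKM with and 187 and 187 FPKM without phenotype (log2 difference -0.34, standard error 0.13, adjusted p = 0.22 from limma). The order of the libraries was that of ple for pr, which acts in the same cofactor pathway, at 57.2 and 49.4 FPKM with and 60.7 and 68.4 FPKM without phenotype.

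Of 6 genes that carry or sense dopamine, 5 were higher and 1 lower with phenotype, a share to be read against the 62.7% of all genes tested that were higher. Their median log2 difference was 0.17, and 0 passed (0 at an unadjusted p under 0.05 from limma). The vesicular monoamine transporter gene Vmat was at 115.14 and 106 FPKM with phenotype and at 98.3 and 104 FPKM without. The dopamine receptor gene Dop1R2, with the largest difference of the list, was at 9.68 and 11.3 FPKM with and 8.40 and 9.41 FPKM without phenotype (log2 difference 0.21, adjusted p = 0.30 from limma). The dopamine transporter gene DAT, a different gene from Dat, was at 11.3 and 12.1 FPKM with phenotype and at 12.8 and 12.9 FPKM without. Whether epidermal or neuronal ple differed was not tested.

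Of the genes that make, attach and release beta-alanine, b and e were highest in repeat 2 without phenotype and t was not. b, the aspartate decarboxylase, was the member of lowest level, at 7.89 and 7.48 FPKM with phenotype and at 7.54 and 11.4 FPKM without. The groups overlapped, and the log2 difference was -0.25 (standard error 0.19, adjusted p = 0.47 from limma). Without repeat 2 without phenotype, which stood above the other libraries, the difference was 0.024. mRNA of b was present in every library of this b1 stock, and the FPKM do not measure the protein. e was at 37.0 and 20.7 FPKM with phenotype and at 34.3 and 62.6 FPKM without. Its means were 28.9 ± 11.5 FPKM with and 48.5 ± 20.0 FPKM without phenotype (SD, n = 2), with a log2 difference of -0.72 (standard error 0.39, 95% interval -1.76 to 0.32, adjusted p = 0.33 from limma). The groups overlapped, since repeat 1 with phenotype lay above repeat 1 without. The repeats themselves differed by 1.78-fold with phenotype and 1.83-fold without, more than the group means, which differed by 1.68-fold. Without repeat 2 without phenotype the log2 difference of e was -0.30.

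t, the hydrolase that reverses ebony's coupling, was at 24.3 and 15.7 FPKM with phenotype and at 22.0 and 18.3 FPKM without. Its means were 20.0 ± 6.05 FPKM with and 20.2 ± 2.62 FPKM without phenotype (SD, n = 2), with a log2 difference of -0.038 (95% interval -0.63 to 0.55, adjusted p = 0.93 from limma). The groups overlapped, and the interval does not show that the levels were alike. The order of its libraries was repeat 1 with, repeat 1 without, repeat 2 without and repeat 2 with phenotype, from high to low. This order was shared by 114 of 10194 genes tested (1.12%) by 2 of 6 photoreceptor markers, trp and ninaC, by 1 of 6 glial markers, Gs2, and by 1 of 5 histamine genes, BalaT. The light-gated channel gene trp was at 71.3 and 41.8 FPKM with phenotype and at 54.6 and 46.0 FPKM without, and the myosin gene ninaC at 111 and 69.9 FPKM with and 101 and 91.2 FPKM without phenotype. The glutamine synthetase gene Gs2 was at 1134 and 887 FPKM with and 1106 and 1041 FPKM without phenotype.

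The genes listed for histamine synthesis, recycling and sensing were low and those of beta-alanine supply summed to like levels in all libraries. Of 5 histamine genes, 4 were higher and 1 lower with phenotype (median log2 difference 0.20, 0 passed, 2 at an unadjusted p under 0.05 from limma). For all genes tested the shares were 62.7% higher and 22.7% at an unadjusted p under 0.05 from limma. Hdc, histidine decarboxylase, was at 6.59 and 6 FPKM with phenotype and at 5.17 and 5 FPKM without, and HisCl1, a histamine-gated chloride channel, at 5.16 and 4.57 FPKM with and 3.73 and 4.02 FPKM without phenotype. Of the 3 genes that make beta-alanine from uracil, 1 was higher and 2 lower with phenotype (median log2 difference -0.036, 0 passed, 0 at an unadjusted p under 0.05 from limma). Their summed level was 148 and 148 FPKM with phenotype and 148 and 142 FPKM without. The highest of them, CRMP, dihydropyrimidinase, was at 65.5 and 71.1 FPKM with and 60.9 and 59.1 FPKM without phenotype.

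The mRNA for the acetylation branch had a higher mean in heads with phenotype. Dat, whose enzyme acetylates dopamine to a precursor of colorless cuticle and also inactivates dopamine and serotonin, was at 205 and 159 FPKM with phenotype and at 142 and 99.1 FPKM without. The means were 182 ± 32.9 FPKM with and 121 ± 30.5 FPKM without phenotype (SD, n = 2), or 1.51-fold higher with phenotype. Its log2 difference was 0.60 (standard error 0.23, 95% interval 0.0021 to 1.20, adjusted p = 0.22 from limma). The groups did not overlap, and within each group repeat 1 was above repeat 2, by 1.29-fold with phenotype and to the extent that repeat 2 was at 0.697 of repeat 1 without phenotype. Of the related acetyltransferase genes 3 of 6 were listed at 0 in every library and 2 were tested. CG9486, now named AANATL2, was at 13.3 and 12.8 FPKM with and 16.4 and 14.5 FPKM without phenotype (log2 difference -0.23, adjusted p = 0.23 from limma), and CG13759, the other tested gene, at 8.95 and 11.5 FPKM with and 9.17 and 8.49 FPKM without phenotype.

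laccase2, the oxidase at the end of the tanning pathway, had the largest difference of the 7 genes. It was at 31.55 and 18.95 FPKM with phenotype and at 41.3 and 52.8 FPKM without. The means were 25.2 ± 8.91 FPKM with and 47.0 ± 8.15 FPKM without phenotype (SD, n = 2), or 1.86-fold lower with phenotype. The log2 difference was -0.90 (standard error 0.27, 95% interval -1.62 to -0.19, adjusted p = 0.18 from limma). Both libraries with phenotype were below both without, and 3.21% of all genes tested had a larger absolute difference. Of 5 other catechol and copper oxidase genes found in the table, 3 averaged 1 FPKM or more. These 3 were higher with phenotype, as were 62.7% of all genes tested. Of the 3 genes, 2 were higher without overlap, against 41.3% of all genes tested. The median log2 difference was 0.28 (0 passed, 1 at an unadjusted p under 0.05 from limma, against 22.7% of all genes tested). PPO2, a prophenoloxidase of crystal cells, which are blood cells that blacken wounds, was at 18.8 and 20.4 FPKM with phenotype and at 13.6 and 14.8 FPKM without (log2 difference 0.44, standard error 0.084, adjusted p = 0.14 from limma). Among the 5 hemocyte markers tested, 2 were higher and 3 lower with phenotype, and Pxn, peroxidasin, the highest, was at 45.4 and 44.9 FPKM with and 45.0 and 42.7 FPKM without phenotype. lz, the crystal cell factor, was at 2.18 and 2.03 FPKM with and 1.78 and 1.47 FPKM without phenotype. The part of the number of blood cells in the level of PPO2 was not tested.

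**Figure D2:**
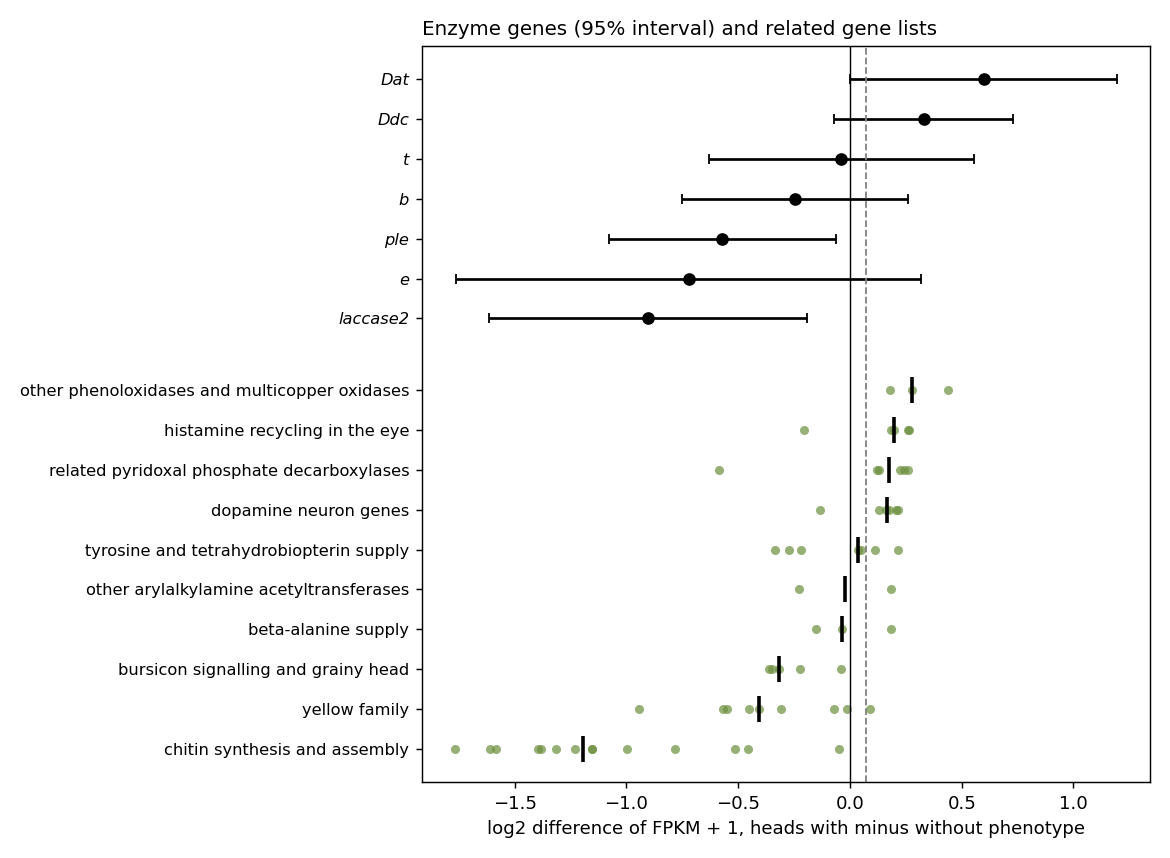
Log2 difference of FPKM + 1, heads with minus heads without phenotype (x axis), for the 7 enzyme genes with their 95% interval from limma (black) and for the tested genes of 10 related lists (green points, each list's median as a black bar). The dashed line is the median of all genes tested at 0.07. Chitin genes lie furthest to the left with a median of -1.19, and laccase2 at -0.90 is the lowest enzyme gene.

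Of the 7 members, 4 shared their extreme libraries with genes that make, bind, modify or break down chitin. ple, e, b and laccase2 were highest in repeat 2 without phenotype and lowest in repeat 2 with phenotype, as were 1105 of 10194 genes tested (10.8%) and 13 of these 14 chitin genes. ple and laccase2 had the same full order as these 13 genes, from high to low repeat 2 without, repeat 1 without, repeat 1 with and repeat 2 with phenotype, an order found in 7.55% of all genes tested. Of the chitin genes 14 of 14 were lower with phenotype, 13 without overlap of the groups against 18.3% of all genes tested, with a median log2 difference of -1.19. None passed the test (0 at an adjusted p under 0.1 and 12 at an unadjusted p under 0.05 from limma, against 22.7% of all genes tested). Their summed level was 677 and 462 FPKM with phenotype and 1132 and 1891 FPKM without. verm, a chitin deacetylase, had the highest level and the largest difference of the list, at 133 and 84.5 FPKM with and 275 and 481 FPKM without phenotype (log2 difference -1.77, standard error 0.35, adjusted p = 0.14 from limma). The chitin synthase gene kkv was at 18.8 and 11.4 FPKM with and 29.4 and 54.7 FPKM without phenotype. laccase2 and ple therefore differed in the same direction as the chitin genes and by less than their median, and whether the tanning genes followed a common source of cuticle mRNA was not tested.

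**Figure D3:**
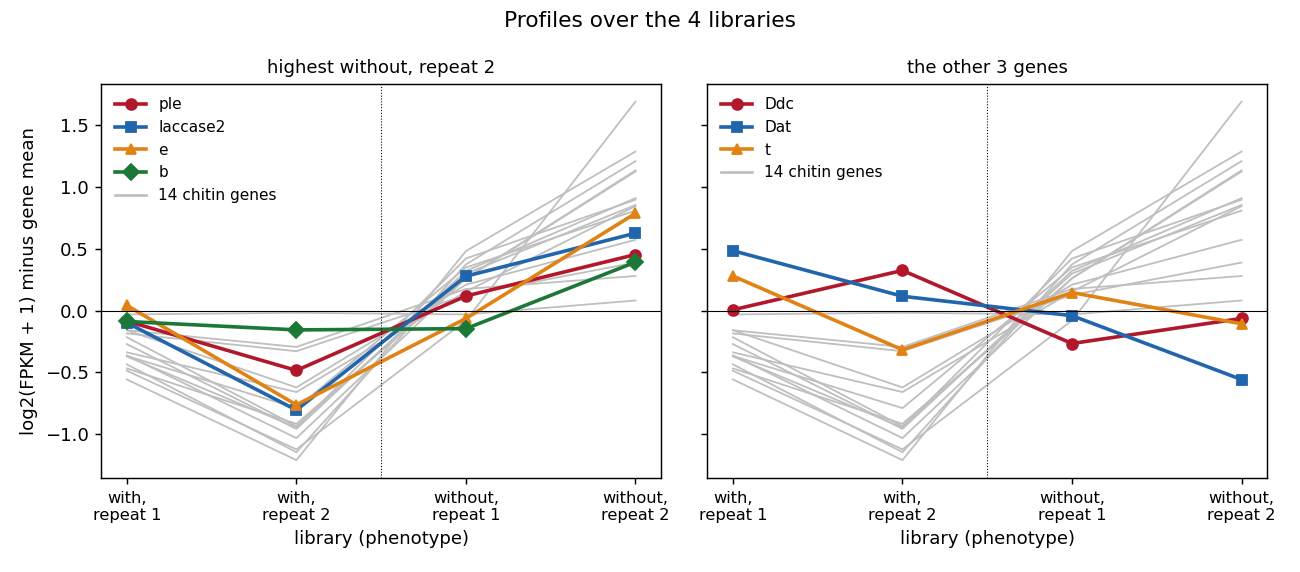
Log2(FPKM + 1) minus the gene's mean over the 4 libraries (y axis) for each library (x axis, with phenotype on the left of the dotted line), with the 14 chitin genes in gray. Lines only join the values of 1 gene. ple, laccase2, e and b (left panel) peak with the chitin genes in repeat 2 without phenotype, while Ddc, Dat and t (right panel) do not.

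Of 9 yellow genes tested, a family of which several members are needed for pigment or cuticle, 1 was higher and 8 lower with phenotype. Of the 9 genes, 6 were lower without overlap, against 18.3% of all genes tested. The median log2 difference was -0.41 (0 passed, 3 at an unadjusted p under 0.05 from limma, against 22.7% of all genes tested). yellow-d2 was at 25.3 and 19.0 FPKM with and 36.8 and 50.3 FPKM without phenotype (log2 difference -0.94, adjusted p = 0.15 from limma), and yellow-c, the highest, at 144 and 117 FPKM with and 181 and 205 FPKM without phenotype. yellow-f2 and yellow-d, both overlapping, had log2 differences of -0.015 and -0.071. Burs and Pburs, the subunits of the tanning hormone bursicon, averaged under 1 FPKM and were not tested. The bursicon receptor gene rk had a log2 difference of -0.038. With CCAP, CCAP-R, Eh and grh it made 5 tested genes, each with a negative difference (median -0.32), of which 4 overlapped between the groups (0 passed, 0 at an unadjusted p under 0.05 from limma). Among all 10194 genes tested, 3798 had a negative difference, and 18.3% were lower without overlap, as was grh. CCAP and CCAP-R were highest in repeat 2 without phenotype, at 6.63 and 4.03 FPKM, and lowest in repeat 1 without phenotype, at 2.62 and 2 FPKM. grh, which binds the Ddc gene, was at 18.9 and 15.4 FPKM with phenotype and at 19.3 and 20.8 FPKM without. Eh, eclosion hormone, was at 13.4 and 6.28 FPKM with and 10.3 and 14.3 FPKM without phenotype. Muscle markers were lower with phenotype in 7 of 7 genes without overlap of the groups, against 18.3% of all genes tested. Their summed levels were 2933 and 2716 FPKM with and 4216 and 3897 FPKM without phenotype. The myosin light chain gene Mlc2, the highest, had a log2 difference of -0.60 and the flight muscle actin gene Act88F, the most different, of -0.92. Glial markers summed to 1672 and 1337 FPKM with and 1691 and 1620 FPKM without phenotype (1 higher and 5 lower). Gs2 made up most of each sum. nrv2, which differed most, had a log2 difference of -0.37 and was the only one lower without overlap, against 18.3% of all genes tested. repo, the only higher one, was at 23.6 and 23.1 FPKM with and 20.7 and 21.9 FPKM without phenotype. It was higher without overlap, as were 41.3% of all genes tested. The lowest glial sum was in repeat 2 with phenotype, which was also lowest in ple, laccase2, e, t and b. The glial markers repo and loco were instead lowest in repeat 1 without phenotype. Fat body markers were higher in 4 and lower in 3 of 7 tested genes and summed to 1035 and 649 FPKM with and 1766 and 538 FPKM without phenotype. Of the 4 higher ones, Yp1, Yp2 and Yp3 were at 2.85 FPKM or less in every library. Their log2 differences were small, at 0.051, 0.0090 and 0.11. Among the other fat body markers Fbp1 was at 6.09 and 3.24 FPKM with and 32.95 and 32.8 FPKM without phenotype (log2 difference -2.63, adjusted p = 0.104 from limma, just outside the threshold). Lsp2, the highest, was at 406 and 147 FPKM with and 1348 and 293 FPKM without phenotype, Lip4 had a log2 difference of -0.85 and apolpp of 1.23. The part of these tissues in the levels of the 7 enzyme genes was not tested.

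Since ple was lower and Ddc higher, their ratio within a library did not overlap between the groups. In FPKM, Ddc was 1.496 and 2.47 times ple in the libraries with phenotype and 1.07 and 0.979 times ple in those without. The mean log2 ratio was 0.94 ± 0.51 with and 0.036 ± 0.094 without phenotype (SD, n = 2), a difference of 0.91. laccase2 over Ddc was 0.167 and 0.0805 with phenotype and 0.265 and 0.294 without, and its mean log2 ratio was -3.11 ± 0.75 with and -1.84 ± 0.11 without phenotype. laccase2 over ple differed less, at 0.250 and 0.199 with and 0.284 and 0.288 without phenotype. For the 2 uses of dopamine, Dat over e was at 5.55 and 7.65 with phenotype and at 4.15 and 1.58 without. Coupling over splitting, e over t, was 1.52 and 1.32 with and 1.56 and 3.41 without phenotype, where repeat 2 without phenotype stood alone. b over e overlapped between the groups, at 0.213 and 0.361 with and 0.220 and 0.182 without phenotype. In an exact two-sided permutation test 5 of the 6 ratios gave p = 0.33, the smallest p that 2 libraries against 2 allow, and b over e gave p = 0.67. After adjustment over the 6 ratios these exact permutation p were 0.40 and 0.67, but no values could have passed this test at this number of libraries, so it does not bear on whether a ratio differed. No other test of the ratios was run.

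**Figure D4:**
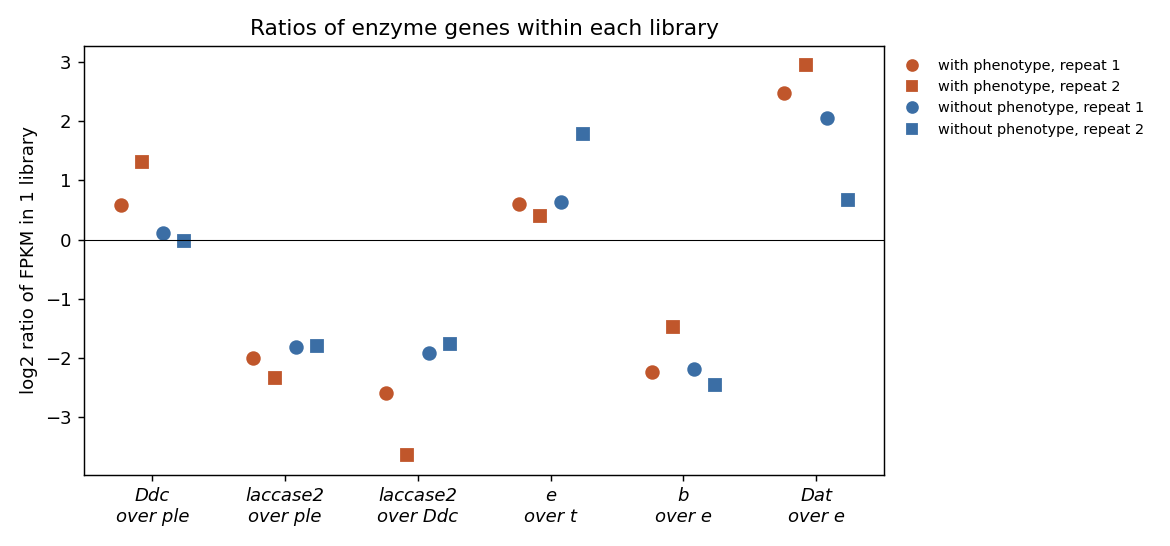
Log2 ratio of the FPKM of 2 enzyme genes within 1 library (y axis) for 6 pairs (x axis), with phenotype in orange, without phenotype in blue, circles for repeat 1 and squares for repeat 2. Ddc over ple lies at 0.58 and 1.30 with phenotype and at 0.10 and -0.031 without, and b over e is the pair whose groups overlap.

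Levels per transcript length fell into 3 steps. Over the 4 libraries the mean was 189.8 FPKM for Ddc, 151 FPKM for Dat and 137 FPKM for ple, then 38.7 FPKM for e, 36.1 FPKM for laccase2 and 20.1 FPKM for t, and 8.58 FPKM for b. The ranges over the libraries of Ddc, Dat and ple overlapped, as did those of e and laccase2 and of laccase2 and t. The lowest ple library, at 95.3 FPKM, was above the highest e library, at 62.6 FPKM, and the lowest t library, at 15.7 FPKM, above the highest b library, at 11.4 FPKM. laccase2 was above t in all 4 libraries and e above laccase2 in 3 of 4. ple, Ddc and Dat were above 92.4%, 94.5% and 93.1% of all genes tested in mean level, and b above 31.7%. Among related decarboxylases, Gad1, which makes the transmitter GABA, was highest at 309 and 336 FPKM with and 275 and 315 FPKM without phenotype. Of these 6 genes 5 were higher and 1 lower with phenotype (median log2 difference 0.18, 0 passed, 2 at an unadjusted p under 0.05 from limma), and the lower one was amd. Shares over all genes tested were 62.7% higher and 22.7% at an unadjusted p under 0.05 from limma.

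The genes most like e, Dat and laccase2 over the 4 libraries were found by the largest absolute distance of centered log2(FPKM + 1) profiles in any library. Only these 3 members spanned at least 1 on the log2 scale (e 1.55, laccase2 1.43 and Dat 1.04). Nearest to laccase2 were CG10936, CG3777 and CG6739, within 0.049, 0.067 and 0.078 in every library. CG10936 was at 13.4 and 8.40 FPKM with and 18.7 and 23.5 FPKM without phenotype. Nearest to Dat were CG43064, CG3523 and CG11236, within 0.027, 0.041 and 0.072. CG43064 was at 1.71 and 1.14 FPKM with and 0.89 and 0.36 FPKM without phenotype. CG3523, a fatty acid synthase gene, was at 393 and 306 FPKM with and 266 and 196 FPKM without phenotype. Nearest to e were CG13705, CG17707 and CG5873, but at larger distances of 0.12, 0.15 and 0.17. With 4 libraries many genes can lie this close. CG13705 was at 2.59 and 0.90 FPKM with and 2.38 and 5.50 FPKM without phenotype. In CG43064 and CG13705, which were low, the added 1 FPKM shrank the differences between libraries. Their FPKM varied more in fold than those of Dat and e.

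The 7 genes are scattered over the genome and differ in isoforms. In dm6, ple lies on 3L from 6713356 to 6719525 on the minus strand with 3 annotated transcripts, Ddc on 2L from 19116483 to 19120306 on the minus strand with 3, and b on 2L from 13821248 to 13823979 on the plus strand with 3. e lies on 3R from 21229839 to 21237177 on the minus strand with 1 transcript, and t on X from 9217655 to 9223257 on the minus strand with 2. RefSeq lists Dat as a synonym of both speck and the dopamine transporter, and the row was taken as speck because DAT, the symbol of the transporter, has a row of its own. On that assignment Dat lies on 2R from 24139563 to 24157762 on the plus strand with 3 transcripts, and laccase2, now named stw, on 2R from 5413744 to 5456095 on the plus strand with 5. ple and Ddc are known to have splice forms that differ between epidermis and neurons, and gene-level values do not separate them. Exons of Ddc share 88 bases with CG10561 on the opposite strand, and exons of Dat share 95 bases with DnaJ-60 and CG42568. The counting is not stated to use strand, so reads from these stretches cannot be told apart. CG10561 was at 21.6 and 24.1 FPKM with and 22.6 and 22.7 FPKM without phenotype, and CG42568 at 8.45 and 10.2 FPKM with and 5.38 and 5.57 FPKM without. DnaJ-60 was at 29.0 and 31.1 FPKM with and 26.2 and 25.0 FPKM without phenotype.

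Neighboring genes had the sign of the member in some cases and not in others. Beside laccase2, CG30440 was at 7.17 and 5.59 FPKM with and 7.67 and 10.5 FPKM without phenotype, lower like laccase2. CG10417 on the other side of laccase2 had the opposite sign, with a log2 difference of 0.084 and overlapping groups. Both neighbors of Dat were higher without overlap like Dat, CG4065 with a log2 difference of 0.24 and spag with 0.17. Of all genes tested, 41.3% were higher without overlap. amd, a relative of Ddc that lies 2372 bp away on the opposite strand and is needed for the cuticle, was at 11.8 and 8.81 FPKM with phenotype and at 15.3 and 16.3 FPKM without (log2 difference -0.59, standard error 0.15, adjusted p = 0.15 from limma), while Ddc was higher with phenotype. CG15369, 188 bp from t on the opposite strand, was at 5.32 and 5.77 FPKM with and 17.9 and 33.3 FPKM without phenotype (log2 difference -1.96, standard error 0.29, adjusted p = 0.12 from limma), while t was at about the same mean level in both groups. Neither passed the test. Next to e, Nelf-A was at 19.5 and 20.4 FPKM with and 15.9 and 16.7 FPKM without phenotype, and next to Ddc on its other side l(2)37Cc, a prohibitin gene, was at 72.8 and 74.8 FPKM with and 74.7 and 70.2 FPKM without phenotype. The difference between each member and its neighbor was not tested.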

How the data were processed

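mRNA of 4 head libraries was measured per gene. PolyA-selected RNA was sequenced as single-end reads, which the authors mapped with Bowtie 2 to mRNAs of RefSeq (dm6) before quantifying with RSEM. The submitters' notes also name dm3, and no tool version is stated in the sources read. The deposited FPKM have 2 decimals and were used without rescaling. They are not counts, so log2(FPKM + 1) of genes averaging 1 FPKM or more was tested with limma 3.58.1 (lmFit, eBayes with trend, two-sided) in R 4.3.3, with Benjamini-Hochberg adjustment over 10194 genes and a threshold of 0.1. EBSeq, which the authors used, needs counts.

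The depth is unknown from FPKM. The lowest values of short genes with 1 transcript put 1 read at about 0.018 to 0.0205 FPKM for a transcript of 1 kb, which would be about 740 to 1280 reads for b and 14520 to 31660 for ple. No counting interval was computed.

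The members and the 19 gene lists (132 of 133 names found) were chosen with earlier results of these data known, and no list was tested as a set. Named were the members, each list's gene of highest level and of largest difference, and the 3 genes of most similar profile for members spanning at least 1 on the log2 scale. The genes osk, nos, bam, otu, vas, bru1, DAT, pr, kkv, trp, ninaC, BalaT, CG13759, rk, CCAP, CCAP-R, Burs, Pburs, yellow-d, yellow-f2, repo, loco, Lip4, apolpp, Yp1, Yp2, Yp3 and the neighbors and overlapping genes were named after their values were seen. Positions are from Ensembl release 115 (dm6). Dat and laccase2 were matched through RefSeq synonyms, and since Dat is a synonym of 2 genes its row was assigned by inference. The fit was tested on simulated data. Alternatives were other pseudocounts, filters, scalings, a replicate block, limma without trend, another threshold and leaving out each library. Python 3.11.15 was used for tables and permutation tests.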

Additional observations from a re-analysis of the deposited data

How the results depend on the processing

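The signs of ple, Ddc, e, Dat and laccase2 held under all 14 alternatives, among them each library left out in turn. Most of this was fixed in advance. Alternatives that changed only the filter, the trend, the block or the threshold leave a difference as it is. For ple, Ddc, Dat and laccase2 the groups did not overlap. Leaving out 1 library or changing the pseudocount could therefore not reverse their signs, and of the 5 genes only e could have changed sign there. No member passed the test as reported, and b passed when repeat 1 without phenotype was left out (log2 difference -0.51, adjusted p = 0.098 from limma, with a range of 0.098 to 0.89 over its alternatives). Members passing were 0 to 1 with 1 library left out. Log2 differences with 1 library left out were -0.77 to -0.37 for ple, 0.17 to 0.49 for Ddc, -1.15 to -0.30 for e, 0.34 to 0.86 for Dat, -1.26 to -0.55 for laccase2, -0.34 to 0.26 for t and -0.51 to 0.024 for b, so t and b changed sign. With median-ratio scaling the median of all genes was -0.0096, and the values were -0.66 for ple, 0.24 for Ddc and 0.51 for Dat.

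The count of 9 genes over the whole table moved to 23 with a pseudocount of 0.1, 3 with no filter on low values, 109 with a filter of 5 FPKM, 1 with median-ratio scaling, 5 with limma without trend and 4 at a threshold of 0.05. With 1 library left out, where the lone library is assumed to vary like the other group, it was 0 to 607, at 0 without either library with phenotype, 607 without repeat 1 and 120 without repeat 2 without phenotype. The cause was not tested. Genes of the pathway lists that passed were 0, and 0 to 11 with 1 library left out. With the repeat number as a replicate block 0 genes and 0 members passed (2070 genes at an unadjusted p under 0.05 from limma). The numbers do not pair the samples by any label, and the deviations of same-numbered libraries correlated across genes at -0.13. A crossed replicate block, added after the data were seen, called 404 genes, 14 pathway genes and 2 members, e and laccase2. It paired repeat 1 with phenotype with repeat 2 without, and repeat 2 with phenotype with repeat 1 without. No label gives this pairing, and it follows the spread of e and laccase2 between their repeats. These calls therefore do not bear on whether the 2 genes differed. Differences of the within-library log2 ratios kept their sign with a pseudocount and with each library left out. Only b over e, whose groups overlapped, could have changed sign when a library was left out. The differences depended in size on single libraries. They ranged from 0.55 to 1.27 for Ddc over ple, -0.52 to -0.19 for laccase2 over ple and -1.79 to -0.74 for laccase2 over Ddc, with the value nearest 0 without repeat 2 with phenotype. They ranged from -1.27 to -0.13 for e over t and 0.65 to 2.04 for Dat over e, with the value nearest 0 without repeat 2 without phenotype, and from 0.094 to 0.85 for b over e.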
